A study of Mus musculus with 22 samples.

Results

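Mecom and Prdm16 encode paralogous zinc-finger transcription factors of the PRDM family, and the histone mark H3K27me3 at their loci was profiled with CUT&RUN, which maps a mark by cutting DNA next to a bound antibody, in E18.5 mouse retina. The 27 peaks described are those that the deposited annotation assigned to Mecom (6), to Gm38362 (4), a transcript model inside Mecom, or to Prdm16 (11), together with 6 peaks of other names that overlapped 29.9 to 30.6 Mb of chromosome 3 (mm10). The full table held 19034 peaks. The locus was chosen by the cKO against control p-value of a peak inside Mecom, among the smallest of the table, so for every member that contrast is given as a description, without p-values, and supports nothing by itself. The animals were C57BL/6 mice whose dams received tamoxifen (75 µg per g body weight) at E10.5. The 5 conditional knockouts (cKO) were Jarid2 fl/fl; Rx-cre, and the protocol calls the driver Rax-CreERT2. Rx (Rax) is a gene of the eye field and its progenitors, so retinal cells of other origin would not be targeted. Of the 5 controls, replicates 2, 4 and 5 were Jarid2 fl/+ and replicate 3 was Jarid2 fl/fl, with no Cre listed, and replicate 1 was Jarid2 fl/+ with Rx-cre. Batch 1 held 2 animals per genotype from a single litter, of both sexes, and batch 2 held 3 male littermates per genotype with technical duplicates. Both retinas of an animal made up a sample. The protocol gives the controls as Jarid2 fl/fl, unlike the sample labels used here, and H3K27me3 counts do not show whether Jarid2 was lost.

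H3K27me3 is deposited by Polycomb repressive complex 2 (PRC2) and marks silent developmental genes, often as broad domains over CpG-rich start sites. Jarid2 is an accessory subunit that helps to bring PRC2 to chromatin. The Mecom locus (MDS1 and EVI1 complex locus) has a far upstream start, from which the long PR-domain form is made, and downstream starts of shorter forms that lack the PR domain. Prdm16 also yields forms with and without a PR domain. Mecom is best known in blood stem cells and leukaemia, and Prdm16 in brown fat, blood stem cells and neural stem cells.

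Both genes lie on the minus strand. In RefSeq (GRCm38.p6, the assembly that mm10 represents) Mecom runs from 29951296 to 30509759 on chromosome 3 and Prdm16 from 154316122 to 154637360 on chromosome 4. All 3 RefSeq start windows of the genes, 250 bases before to 50 after a start, lay within member peaks, and they are shown because the peaks over the upstream and the downstream starts are contrasted throughout. The upstream Mecom window is chr3:30509710-30510009, the downstream one is chr3:30013155-30013454, and the Prdm16 window is chr4:154636824-154637123. They are written 5′ to 3′ along the minus strand, with CpG dinucleotides in capitals.
Mecom upstream promoter: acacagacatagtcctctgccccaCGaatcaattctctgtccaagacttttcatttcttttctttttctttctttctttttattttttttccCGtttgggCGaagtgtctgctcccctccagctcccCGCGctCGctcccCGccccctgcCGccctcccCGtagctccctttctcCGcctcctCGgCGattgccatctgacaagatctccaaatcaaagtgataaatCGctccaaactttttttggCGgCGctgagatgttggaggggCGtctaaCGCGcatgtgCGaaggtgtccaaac
Mecom downstream promoter: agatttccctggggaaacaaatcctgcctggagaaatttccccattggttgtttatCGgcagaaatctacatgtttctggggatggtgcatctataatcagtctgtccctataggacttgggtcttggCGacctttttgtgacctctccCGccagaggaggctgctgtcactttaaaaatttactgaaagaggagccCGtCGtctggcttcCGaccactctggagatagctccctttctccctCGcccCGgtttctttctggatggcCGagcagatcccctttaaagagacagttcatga
Prdm16 promoter: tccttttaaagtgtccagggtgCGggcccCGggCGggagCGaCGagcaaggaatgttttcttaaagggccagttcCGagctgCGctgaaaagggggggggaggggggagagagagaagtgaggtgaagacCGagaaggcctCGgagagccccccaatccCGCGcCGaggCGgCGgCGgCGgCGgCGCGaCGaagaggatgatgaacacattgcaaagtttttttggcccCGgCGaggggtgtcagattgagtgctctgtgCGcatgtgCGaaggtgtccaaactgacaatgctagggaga

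The upstream Mecom window held 19 CpGs and the Prdm16 window 24, with observed over expected CpG ratios of 1.02 and 0.939. The downstream Mecom window held 9, with a ratio of 0.488. Among the 32851 RefSeq promoter windows these ratios stood at percentiles 94.95, 90.3 and 57.3. The upstream Mecom and Prdm16 windows, but not the downstream one, also shared a run of 24 bases just after the start, at base 27 of Mecom and base 10 of Prdm16, which is shown because both upstream starts hold it.
Shared run: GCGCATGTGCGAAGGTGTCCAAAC
Of all windows, searched on both strands, 2 held this run, those of Mecom and Prdm16. In Mecom it reached the end of the window, so it may be longer.

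In control retinas the mark was densest over the upstream starts. Levels are in CPM, the reads of a peak scaled to a common library size with TMM factors, and are compared between peaks only per kb of peak. The 15.1 kb peak over the upstream Mecom start (chr3:30503100-30518150) held 33.0 ± 3.65 CPM per kb, and the 21.6 kb peak over the Prdm16 start (chr4:154628330-154649910) held 27.9 ± 4.17 (SD, n = 5). These densities stood at percentiles 99.5 and 98.7 of all peaks. Next in Mecom came a 25.4 kb peak (chr3:30140210-30165600) that the deposited annotation places over a further Mecom start, with 22.7 ± 4.74 CPM per kb, and a 15.7 kb peak in the gene body assigned to Gm38197 (chr3:30212590-30228270), with 21.7 ± 2.39, a gap smaller than either spread. The 15.1 kb peak over the downstream RefSeq start (chr3:30005500-30020560) held 14.4 ± 2.19. It lay 496.6 kb from the upstream start, counted from start to start. The intronic Mecom peak at chr3:30346500-30351790 held 12.1 ± 4.60, and the strongest Prdm16 intronic peak (chr4:154485420-154495870) held 11.6 ± 1.25. The others held 3.79 to 9.61 CPM per kb. Prdm16 thus had its densest domain at its start and a cluster of less dense intronic peaks. The densest of these stood at percentile 85.4 of all peaks. Mecom had 3 further broad domains downstream, at 14.4 to 22.7 CPM per kb. A wide peak of another name inside the Prdm16 gene body (chr4:154541880-154556350), not a member, held 6.52 ± 0.58 CPM per kb.

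**Figure D1:**
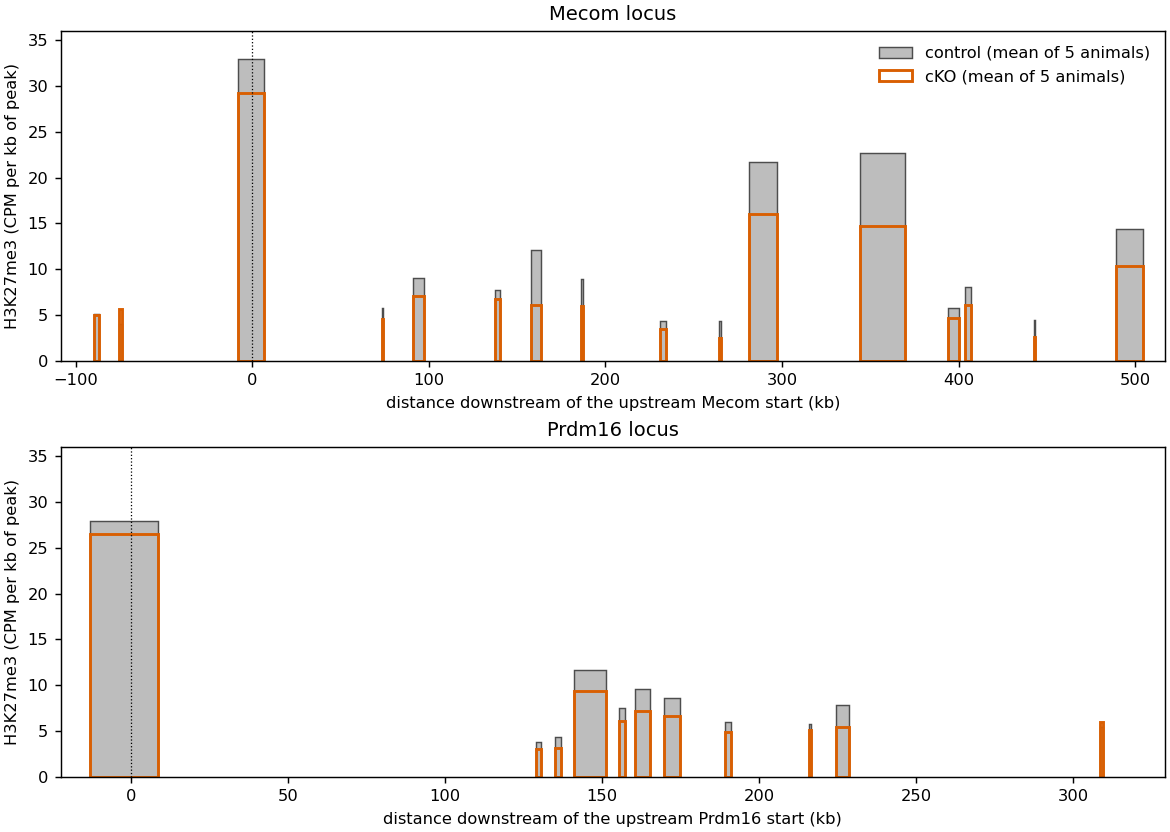
H3K27me3 along both loci, with distance downstream of the upstream start in kb on the x axis and mean CPM per kb of peak on the y axis. Each bar is a member peak drawn to its width, grey for 5 controls and orange outline for 5 cKO animals. The outlines nearly reach the grey bars at the starts and fall short of them over the downstream Mecom domains.

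The peaks over the upstream starts were not called different between genotypes with all animals, though the Mecom one was called lower without control replicate 5 (log2 fold change -0.26 ± 0.06). Over the upstream Mecom start, controls 1 to 5 held 555, 495, 522, 502 and 407 CPM, and cKO animals 1 to 5 held 404, 424, 496, 449 and 428 CPM. The cKO animals lay below the controls in batch 1 and overlapped them in batch 2. The log2 fold change of cKO over control, fitted with edgeR with batch as a term, was -0.17 ± 0.08 (SE). Over the Prdm16 start, controls held 689, 619, 669, 574 and 463 CPM and cKO animals 554, 587, 631, 563 and 524 CPM. The cKO animals again lay below the controls in batch 1 and overlapped them in batch 2, and the log2 fold change was -0.07 ± 0.09. In batch 2 alone the group means over this start were 569 CPM in controls and 573 CPM in cKO.

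The broad downstream domains of Mecom held less mark in the cKO. The 25.4 kb domain at 30140210 held 416, 491, 676, 697 and 600 CPM in controls 1 to 5 and 229, 253, 488, 476 and 422 CPM in cKO animals 1 to 5. All cKO animals lay below all controls of their batch, although cKO animals of batch 2 reached the level of the batch 1 controls. Its log2 fold change was -0.66 ± 0.08. Controls were 1.88-fold above cKO in batch 1 and 1.42-fold above it in batch 2. The domain over the downstream start, from which the shorter form is read, held 172, 207, 257, 240 and 209 CPM in controls and 104, 118, 199, 181 and 178 CPM in cKO animals. Here too the genotypes were separate within each batch, with a log2 fold change of -0.49 ± 0.09. The Gm38197 domain, inside the Mecom gene, held 303, 318, 386, 375 and 320 CPM in controls against 203, 209, 292, 287 and 268 CPM in cKO animals. At this domain every cKO animal was below every control of both batches (log2 fold change -0.44 ± 0.07).

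The largest difference among the called members was at the intronic peak at 30346500, the peak by which the locus was noticed. It held 33.8 and 42.8 CPM in the batch 1 controls and 80.7, 88.6 and 75.2 CPM in the batch 2 controls, against 15.5, 16.5, 44.2, 43.7 and 41.4 CPM in cKO animals 1 to 5. The genotypes were separate within batches but not across them. The log2 fold change was -0.999 ± 0.10. A wider and weaker intronic peak at chr3:30412480-30418950 held 46.3, 62.9, 61.9, 60.0 and 60.7 CPM in controls against 39.4, 37.1, 47.4, 46.8 and 57.4 CPM in cKO animals. Control 1 lay below every cKO animal of batch 2, and the peak had a log2 fold change of -0.35 ± 0.10. Its call was lost without control replicate 2, without cKO replicate 2, 3 or 4, with DESeq2, with total-count scaling, without a batch term, in either batch alone, and with the first technical duplicate only. The other tested intronic Mecom peaks held 4.94 to 36.2 CPM in controls. They had log2 fold changes from -0.82 ± 0.29 (chr3:30244470-30245600, at 4.94 CPM in controls) to -0.19 ± 0.12. None of them was called in the main fit (edgeR with batch as a term). Called lower in other fits were 30102610 (without control replicate 1 or cKO replicate 4, with sex as a term, and with DESeq2 size factors in edgeR), 30244470 (without cKO replicate 4) and 30322480 (without control replicate 5). Outside the gene, an intergenic peak at chr3:30583550-30585330 went the other way (7.19 ± 1.56 CPM in controls, log2 fold change 0.45 ± 0.21) and was not called.

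**Figure D2:**
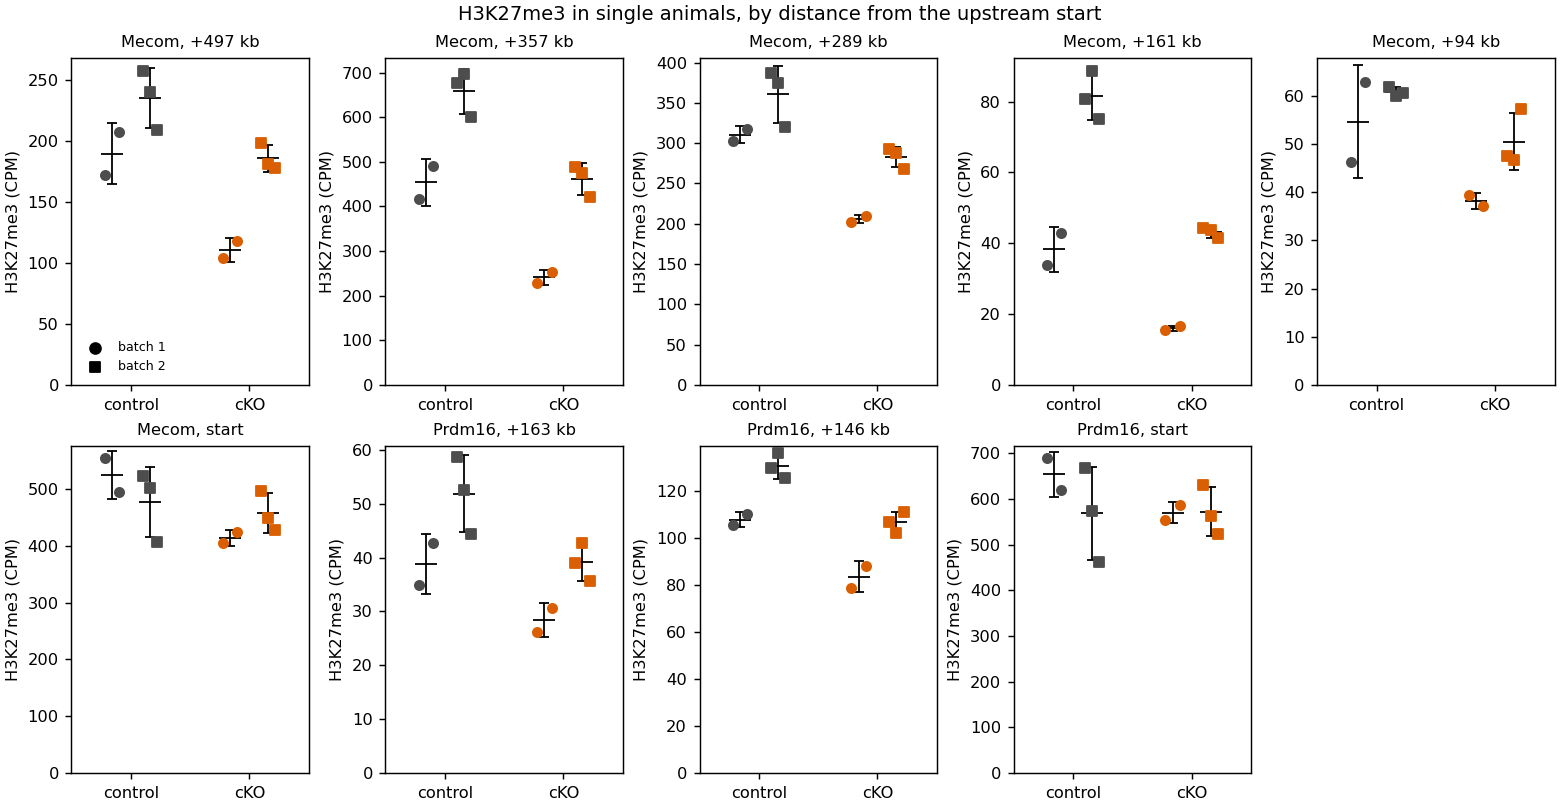
H3K27me3 in CPM in each animal at the 9 member peaks with most reads, controls in grey and cKO in orange, circles for batch 1 and squares for batch 2, with the mean and SD of each group and batch. Panel titles give the distance downstream of the upstream start, and the panels of the upstream starts show overlapping genotypes in batch 2.

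In Prdm16 the intronic cluster held less mark in the cKO, by smaller amounts. The strongest of these peaks, at 154485420, held 106, 110, 130, 136 and 125 CPM in controls 1 to 5 and 78.9, 88.2, 107, 102 and 111 CPM in cKO animals 1 to 5. All cKO animals were below all controls of their batch, and the log2 fold change was -0.32 ± 0.07. The neighbouring peak at chr4:154471520-154476370 held 34.8, 42.8, 58.6, 52.6 and 44.4 CPM in controls against 26.1, 30.6, 39.0, 42.8 and 35.7 CPM in cKO animals. Its genotypes too were separate within batches (-0.42 ± 0.10). The peak at chr4:154461940-154467090 held 34.3, 37.8, 52.5, 45.9 and 50.7 CPM in controls against 27.2, 33.6, 40.6, 34.7 and 33.4 CPM in cKO animals (-0.38 ± 0.10). It was separate within both batches, and its call was lost without control replicate 3 or cKO replicate 4 and with DESeq2, which also lost the call at 154471520. The peak at chr4:154408170-154412350 held 24.4, 32.1, 36.9, 31.0 and 38.9 CPM in controls against 15.5, 20.04, 31.3, 25.8 and 19.8 CPM in cKO animals (-0.52 ± 0.13). Its genotypes were separate in batch 1, and in batch 2 cKO animal 3 lay above control 4. The 5 other tested intronic peaks of Prdm16 ran from -0.45 ± 0.20 to 0.10 ± 0.27, at 5.00 to 15.5 CPM in controls, and were not called. Another 4 peaks inside the Prdm16 gene body carried other names in the annotation and were not members. Their log2 fold changes were -0.49 to -0.26, with 0 of 4 called (edgeR, with 3 at an unadjusted p under 0.05, and 0 called with DESeq2 or limma-voom).

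Counted over both loci, 25 of 27 peaks passed the filter on low counts. The 2 that did not, at 30066280 (named Mecomos) and 154420200, had at most 14 and 16 reads in any animal. Of the 25, 9 were called lower in cKO (edgeR quasi-likelihood test over all peaks, adjusted p under 0.05) and 0 higher. Over all 16307 tested peaks 7.38% were called lower and 1.46% higher. Of all 1914 tested intron peaks 295 were lower and 13 higher, and of all 8603 tested promoter peaks 366 and 158. Among the members, 6 of 17 tested intron peaks and 3 of 7 promoter peaks were lower. Since this contrast picked the locus, nothing is read from the members' count. The calls were 5 in the Mecom locus and 4 in Prdm16. With DESeq2 6 were lower, with limma-voom 9, and without a batch term 0. Over all peaks these fits called 835, 1180 and 335 lower, against 1204 in the main fit. With the first technical duplicate only 6 were lower (30412480, 154408170 and 154461940 were lost), and with the second 9. The median log2 fold change was -0.32 over the tested members and 0.02 over all tested peaks. All cKO animals lay below all controls in both batches at 8 of the 25, where 7.59% of all tested peaks did so, and at 1 of the 25 across batches, where 1.97% did. Scaled by total count, 8 members were lower. Over all peaks 1013 were then lower and 467 higher, and the share of lower among called peaks was 68.4% in place of 83.5%.

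**Figure D3:**
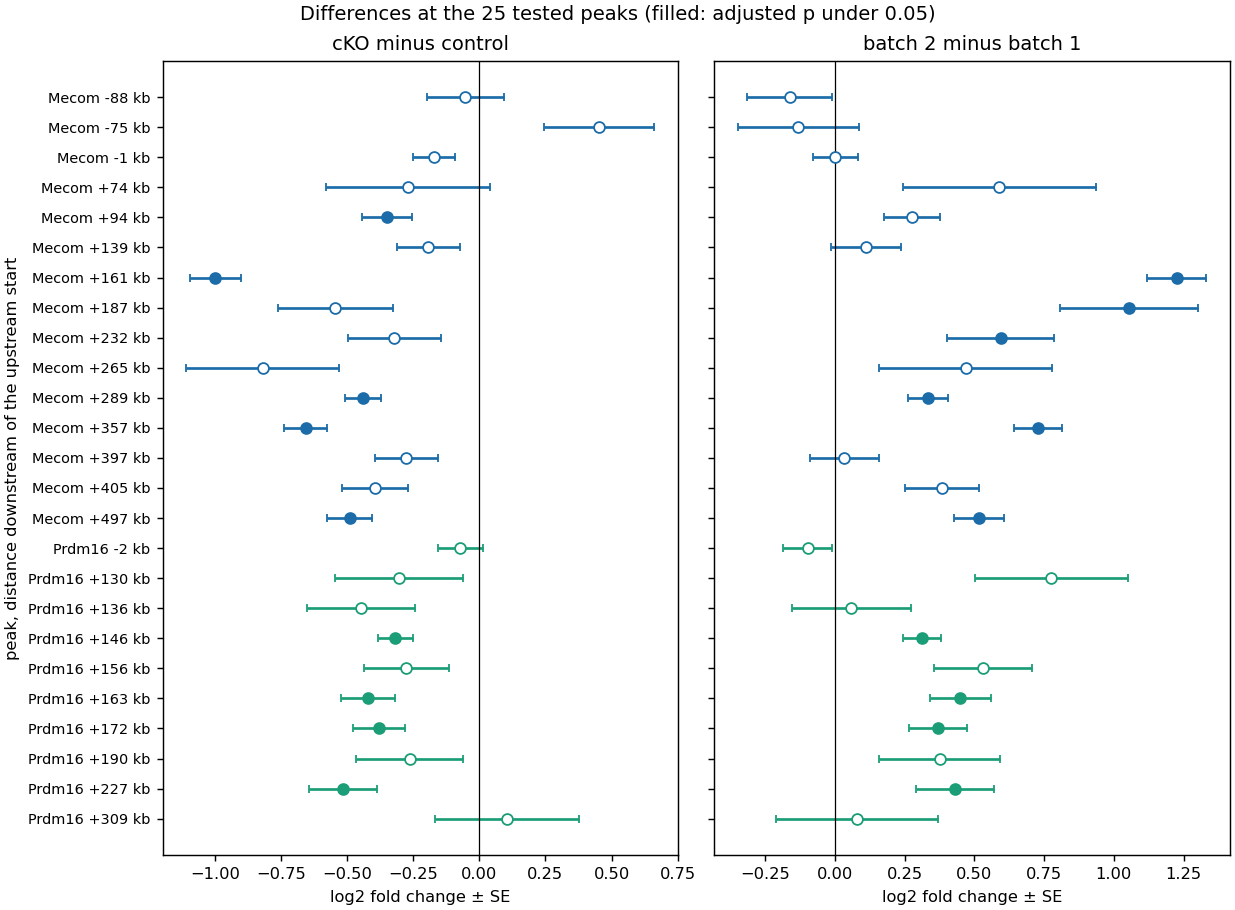
Log2 fold changes with SE at the 25 tested peaks, ordered along each locus, for cKO minus control on the left and batch 2 minus batch 1 on the right. Filled points passed an adjusted p of 0.05; at the upstream starts the genotype points are open, at -0.17 ± 0.08 for Mecom and -0.07 ± 0.09 for Prdm16.

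Summed over its 16 peaks, the Mecom locus had 1908 ± 217 CPM among the 5 controls and 1429 ± 270 CPM among the 5 cKO animals (SD). By batch the means were 1718 and 1138 CPM in batch 1 and 2035 and 1622 CPM in batch 2, and the genotypes did not overlap within a batch. The log2 fold change was -0.45 ± 0.07. The order of these levels was batch 2 controls, batch 1 controls, batch 2 cKO and batch 1 cKO, and batch 1 controls (1652 and 1784 CPM) overlapped batch 2 cKO (1692, 1623 and 1551 CPM). Prdm16 had 898 ± 76.4 CPM in controls against 802 ± 58.5 CPM in cKO, with a log2 fold change of -0.18 ± 0.07. Its genotypes overlapped in batch 2 (892 ± 106 and 827 ± 60.9 CPM, n = 3 each). Without the upstream start peak, the rest of Prdm16 had 323 ± 6.76 CPM in that batch's controls and 254 ± 7.39 CPM in its cKO animals, with no overlap. In bulk retina, fewer cells with the mark and less mark per cell cannot be told apart.

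The share of a locus's reads that lay in the upstream start peak does not depend on how libraries are scaled. For Mecom it was 33.6% and 27.8% in the batch 1 controls against 36.4% and 36.3% in the batch 1 cKO animals. In batch 2 it was 24.2%, 23.7% and 22.1% in controls against 29.3%, 27.7% and 27.6% in cKO animals. The share was higher in every cKO animal than in every control of its batch. For Prdm16 it was 74.5% and 69.5% against 75.3% and 73.8% in batch 1, where the genotypes overlapped. In batch 2 it was 67.0%, 64.4% and 58.9% in controls against 70.6%, 69.3% and 67.7% in cKO animals, without overlap. This is a ratio of the same counts that picked the locus and is given without a test.

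**Figure D4:**
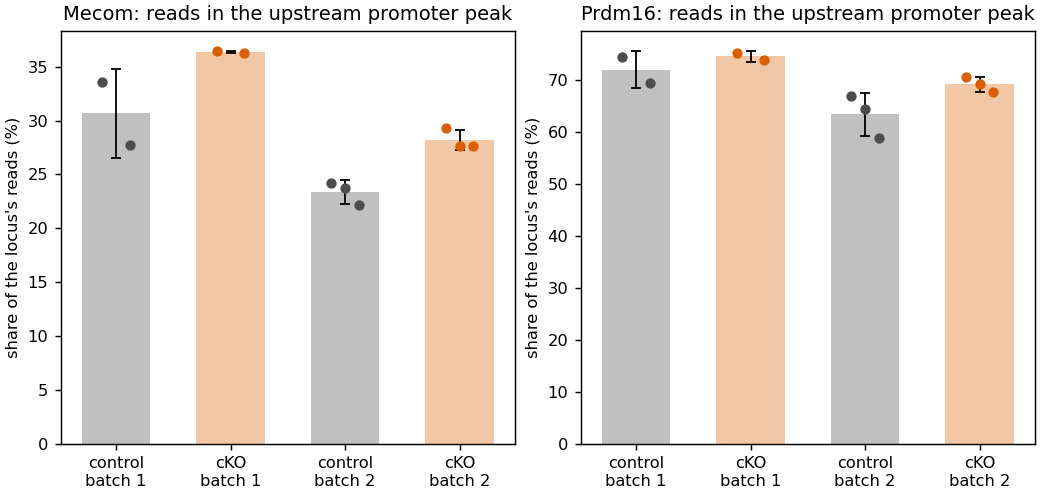
Share of each locus's reads in the peak over its upstream start, in percent, per animal (points), with the mean (bars) and SD (lines) of each genotype and batch. For Mecom the cKO points lie above the control points of their batch, and for Prdm16 they do so in batch 2.

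The batches differed at the same loci, a contrast that the choice of members did not use. At 10 of the 25 tested members the mark was higher in batch 2 (edgeR test of the batch term, adjusted p under 0.05), and at 0 it was lower. Over all tested peaks 6.1% were higher and 6.19% lower. Of all 1914 tested intron peaks 256 were higher and 57 lower, and of all 8603 tested promoter peaks 332 and 765. Among the members, 6 of 17 tested intron peaks and 4 of 7 promoter peaks were higher. The batch comparison uses the same animals as the genotype comparison, so the values are only set side by side. The intronic Mecom peak at 30346500 was 2.13-fold higher in batch 2 than in batch 1 among controls (log2 fold change 1.23 ± 0.11 over both genotypes, edgeR adjusted p = 2.4e-07), beside a genotype difference of -0.999. At the 25.4 kb domain the batch difference was 0.73 ± 0.09 (adjusted p = 5.6e-06), beside -0.66. The downstream start had 0.52 ± 0.09 (adjusted p = 5.3e-04) and the Prdm16 peak at 154485420 had 0.31 ± 0.07 (adjusted p = 0.00406). Over the upstream starts it was 0.0012 ± 0.08 for Mecom (adjusted p = 0.998) and -0.10 ± 0.09 for Prdm16 (adjusted p = 0.573). The weaker Mecom intronic peak at 30322480 had 1.05 ± 0.25 (adjusted p = 0.00697). Of the 10 batch calls, those at 30275570 (without control replicate 1, 4 or 5 or cKO replicate 1, 2, 3 or 5), 154408170 (without control replicate 1, 3 or 5 or cKO replicate 1, 2, 3 or 4) and 154461940 (without control or cKO replicate 1) were lost when an animal was left out. The locus sum differed for Mecom (0.40 ± 0.07, adjusted p = 8.5e-04), and for Prdm16 it was 0.07 ± 0.07 (adjusted p = 0.587). With control animals only, 2 members passed, and the Mecom sum had 0.26 (adjusted p = 0.375). Scaled by total count, 31.9% of called peaks were lower in batch 2, in place of 50.3%. Batch and litter cannot be told apart. Neither batch was replicated, so the p-values of the batch term measure spread between animals within a batch, not between batches or litters. Batch 1 held both sexes and batch 2 males only. At 30346500 the batch 1 males (33.8 CPM in the control, 16.5 CPM in the cKO animal) lay below every batch 2 male of their genotype. That control was replicate 1, the control with Cre, so Cre and batch cannot be told apart in its value. The part of sex was not tested. The batch difference was not refitted with sex as a term or with single duplicates.

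Whether the genotype difference itself changed with batch was tested next. The interaction of batch and genotype passed at 0 of the 25 members (edgeR, 2 at an unadjusted p under 0.05, and 0 called with DESeq2 or limma-voom), where 0.0123% of all tested peaks passed. The estimate was positive at 20 of the 25, and at 8763 of all 16307 tested peaks. A positive value is a smaller decrease in batch 2 or, at 30583550, where cKO was higher in both batches, a larger increase. The lowest unadjusted p, 0.0136, was at the 25.4 kb Mecom domain (0.40 ± 0.15). The Mecom locus sum had 0.29 ± 0.13 (unadjusted p = 0.0364, adjusted p = 0.999). Control replicate 1, the control with Cre, had the lowest level of the 5 controls in the Mecom sum (1652 CPM), the 25.4 kb domain and the peak at 30346500, and batch 1 held 1 other control (1784 CPM). At both upstream starts the same animal had the highest level of the 5 controls (555 and 689 CPM). Against the batch 2 controls, all male, its Cre and its batch cannot be told apart. Against the other batch 1 control, a female, its Cre and its sex cannot be told apart. Leaving out each animal in turn, control replicate 1 included, the log2 fold change of the Mecom sum stayed between -0.49 and -0.40.

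The peaks next to the loci were examined in the same fit. The window edge on the Mecom side fell between the downstream start peak, which is a member, and a peak at 29814170. That peak did not pass the filter on low counts (4.26 ± 1.27 CPM in controls, 2.58 ± 1.46 CPM in cKO). At the other edge the last member, at the start of Actrt3, an actin-related gene, had -0.05 ± 0.15, and the next peak, assigned to Lrrc34, had 0.06 ± 0.08. Within 500 kb outside the Mecom gene, beyond the members, 0 of 4 tested peaks were called (edgeR, 1 at an unadjusted p under 0.05, and 0 with DESeq2 or limma-voom), and their median log2 fold change was 0.06. Within 500 kb of Prdm16, 1 of 36 tested peaks was lower and 2 were higher (7.38% and 1.46% over all peaks), with a median of 0.11, and with DESeq2 0 were called. Named after their values were seen, these were the peaks assigned to Ttc34 (-0.26 ± 0.08), Gm25880 (0.39 ± 0.12) and Mmel1 (0.30 ± 0.09).

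Promoter peaks of a low CpG ratio were called more often in both directions. The 3126 tested peaks that contained a RefSeq promoter window were put in 4 bins of the CpG ratio. The lowest bin had 54 of 782 called lower (6.91%) and 15 higher, and the highest had 27 of 781 lower (3.46%) and 6 higher, a description with no test. The median log2 fold change was 0.01 in the lowest bin and -0.01 in the highest. The upstream Mecom and Prdm16 starts belonged to the highest bin, and the downstream Mecom start to the bin of 0.372 to 0.602. A further member, the Prdm16 intron peak at chr4:154506410-154507900, contained a promoter window of ratio 0.220, in the lowest bin. It was not called (-0.30 ± 0.24). Median peak widths were 5931 bp in the lowest and 8371 bp in the highest bin, and the part of width was not tested.

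None of the other PRDM genes measured passed the test. Of 13 listed, 7 had peaks, and 0 of the 7 passed (edgeR over 11319 genes, where 8.25% were lower and 1.51% higher, 0 at an unadjusted p under 0.05, and 0 with DESeq2 or limma-voom). The median log2 fold change was -0.06, against 0.02 over all genes. Prdm13, a regulator of amacrine cell fate, had 1298 ± 82.3 CPM in controls against 1245 ± 65.6 CPM in cKO (-0.06 ± 0.05). Prdm6 held 992 ± 89.0 and 950 ± 47.0 CPM, Prdm12 927 ± 120 and 914 ± 59.3 CPM, and Prdm8, a regulator of bipolar cells, 861 ± 92.9 and 821 ± 67.3 CPM. Of 22 genes for proteins known to bind MECOM or PRDM16, 12 had peaks, 11 could be tested and 0 passed (1 at an unadjusted p under 0.05, 0 with DESeq2 or limma-voom), with log2 fold changes from -0.30 (Ppargc1a) to 0.27 (Med1). Of 19 genes of brown fat and blood stem cells, where this family is best known, 15 had peaks and 0 passed (0 at an unadjusted p under 0.05, 0 with either other tool), with a range of -0.17 to 0.17.

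Genes whose summed mark followed the Mecom sum most closely over the 10 animals, after the mean of each batch was subtracted, were Zbbx (Pearson r 0.996), Gm4263 (0.995), Gm6555 (0.994), Celrr (0.991) and Lnpk (0.991). For Prdm16 the 5 highest included Gm32305 (0.990), Tbx15 (0.978), Elavl2 (0.977) and Gm33175 (0.976). The Mecom and Prdm16 sums had an r of 0.851 with each other, which ranked Prdm16 693rd for Mecom and Mecom 217th for Prdm16. These points share libraries and genotype groups, and the values describe genes among the 5 highest of 11319.

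Reads in peaks per animal ran from 1688368 to 2864080, of which 2080 to 5956 lay in the Mecom locus and 1381 to 2760 in Prdm16. Technical duplicates were summed, since the chi-square of their counts divided by its degrees of freedom was 0.876 to 0.979, whereas different animals of a group and batch gave 1.08 to 2.90. As a check of the tissue, 4 of 8 retina and eye field genes had peaks, and 3 could be tested. Pax6 had 21.5 CPM (log2 fold change -0.13, not called, with -1.05 in batch 1 alone and 0.21 in batch 2 alone). Lhx2 had 126 CPM (-0.26, called lower with edgeR) and Otx2 had 731 CPM (-0.33, called lower with edgeR). In this list DESeq2 called 1 gene lower and limma-voom 2. Of 9 genes of other lineages 6 had peaks, with 239 to 1795 CPM (control means) and 0 called (edgeR, 0 at an unadjusted p under 0.05, 0 with DESeq2 or limma-voom). These sums per gene are not scaled to length, and Otx2 lay inside the range of the other lineages, so no order is read from them. Of 7 endothelial genes, 4 had peaks, Kdr at 6.10 CPM and the others at 216 to 866 CPM, with 0 called and no peak at Tek, Cdh5 or Pecam1. Of 4 pigment epithelium genes Mitf had peaks (175 CPM, -0.19, called lower with edgeR and limma-voom but not with DESeq2). A chromatin mark in bulk tissue does not count cells, so the part of cell composition in these differences was not tested.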

How the data were processed

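Tools named without role or order, per the submitters' processing notes, are MACS2, DESeq2 1.38.1, Novoalign 4.02.02 and SAMtools, with the build mm10. The authors deposited whole-number counts per peak for 16 H3K27me3 libraries in 1 peak set, and these alone were analysed. The sources used here give no read counter, duplicate handling, peak settings or use of IgG, and 6 libraries made with IgG are not analysed here. The deposited mean signal, log2 fold change, score, p-value and peak annotation came in the same table, and of these only the annotation was used.

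Duplicates were summed per animal. Peaks were filtered with filterByExpr, scaled with TMM and tested with edgeR 4.0.16 (quasi-likelihood, R 4.3.3, batch plus genotype, Benjamini-Hochberg over all tested peaks); sums per gene were treated alike. SE is the log2 fold change divided by the square root of F. DESeq2 1.42.0 and limma 3.58.1 (voom) were alternatives, beside other scalings, filters, terms, single batches or duplicates, and leaving out animals. Every member peak is covered by the rule for named genes; list genes were named if called or, for PRDM genes, the 4 with most reads, and lowest and highest values elsewhere. Likeness used log2(CPM + 1). Some genes that these rules cover are not reported here. The steps were tested on simulated data. Members and lists were chosen with earlier results of these data known. Animals were not paired by replicate number in the main fit. In batch 2, deviations from group and batch means correlated at 0.0142 to 0.0948 for same-numbered animals. For animals of different numbers they correlated at -0.0669 to 0.0260. In batch 1, with 2 animals per genotype, the deviations mirror each other. Its -0.445 for same numbers and 0.445 for different numbers are therefore a single value and cannot decide on pairing. Animals are separate, so p-values measure spread between animals within a batch, also for the batch term, and not spread between batches or litters.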

Additional observations from a re-analysis of the deposited data

Results flagged for a closer look

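In groups of 5 animals, 4 of 58 had an animal far from the others by Dixon's test at the 95% level, and chance flags about 1 in 20 groups. Control replicate 1, the control that carried Cre, was the lowest at 2 Mecom intron peaks, with 1.49 CPM at the untested peak at 30066280 (nearest other control 4.31 CPM) and 46.3 CPM at 30412480 (nearest 60.0 CPM). At the Prdm16 intron peak at 154445750, control replicate 5 was the highest control (16.8 CPM, nearest 10.9 CPM) and cKO replicate 1 the lowest cKO animal (4.26 CPM, nearest 9.80 CPM).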

How the results depend on the processing

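Over all peaks, the 1204 lower peaks became 335 without a batch term and 0 in batch 1 alone, and ran from 950 to 1366 without 1 animal. The 238 higher peaks became 467 with the total count, 24 without a batch term, 0 in batch 1 alone, 107 and 116 with the first and second duplicate, 28 with DESeq2, and 110 to 288 without 1 animal. The 9 members called lower became 0 without a batch term and 0 in batch 1 alone, and were 8 to 11 without 1 animal. In batch 1 alone, where 0 of all peaks were called lower, 13 of 21 tested members had an unadjusted p under 0.05. The share of all peaks below that p in this fit is not given here, so nothing is read from the count. The Mecom sum had -0.43 without a batch term and -0.60 in batch 1 alone, and neither passed the threshold. The Prdm16 sum, -0.18, passed in 1 fit, without control replicate 5 (-0.23), and ran from -0.23 to -0.13 without 1 animal. With the replicate block in place of batch, the Mecom and Prdm16 sums had -0.44 and -0.17, and 9 members were called, as without it; it changed no call at the members.

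For the batch difference, the 1009 lower and 995 higher peaks became 670 lower with the total count, 609 lower and 543 higher with DESeq2, 183 lower and 220 higher in controls alone, and 629 to 1049 lower and 632 to 1180 higher without 1 animal. Members higher in batch 2 numbered 6 with DESeq2 and 2 in controls alone, where the Mecom sum had 0.26, and 7 to 13 without 1 animal. Scaled by total count, the interaction was called at 1 lower peak and 5 higher, in place of 0 and 2. Without a filter and with limma-voom 0 were higher, with DESeq2 there was 1 lower and 1 higher, and without 1 animal there were 0 to 2 lower and 0 to 6 higher. The cause of these shifts was not tested. The fits of a single batch and of controls alone also held fewer animals, and the part of this was not tested. The 2 members with at most 14 and 16 reads in any animal did not pass the filter on low counts in the main fit. Without that filter all 27 members were tested, and the same 9 were called.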
